A study of Mus musculus with 23 samples.

Results

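The *Rhox* and *Mage* gene families, together with *Tex13b* and *Fmr1nb*, were followed across transplanted mouse tumors and the cancer-associated fibroblasts (CAFs) sorted from such tumors. Members were taken by name: every gene symbol starting with Rhox or Mage, plus *Tex13b* and *Fmr1nb*, with 1 transcript row kept per symbol, the row with the largest mean. This gave 56 of the 24940 gene symbols in the series. They comprised 31 *Rhox* genes (22 of the alpha, 5 of the beta and 4 of the gamma subcluster), 23 *Mage* genes (16 of type I and 7 of type II), *Tex13b* and *Fmr1nb*. Of the 56, 53 lie on the X chromosome.

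The *Rhox* (reproductive homeobox) genes encode homeodomain transcription factors and stand side by side on the X chromosome. They are known from the testis, ovary and placenta, and DNA methylation keeps them silent in most adult somatic tissues. *Mage* genes encode proteins that share a MAGE homology domain, many of which bind RING-type E3 ubiquitin ligases. Type I *Mage* genes (the *Magea* and *Mageb* groups here) are normally restricted to germ cells and are often switched on in cancer, whereas type II genes (*Maged*, *Magee*, *Magef*, *Mageh*, *Magel*) are transcribed in many somatic tissues. *Tex13b* was first described as a testis-expressed gene, and *Fmr1nb* lies beside the fragile X gene *Fmr1* and is the mouse counterpart of a cancer-testis antigen.

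RNA was sequenced from 15 whole tumors, 3 for each of 5 models: B16 (B16-F10 melanoma), EO771 (the LMB derivative, a mammary carcinoma), LL2 (lung carcinoma), MC38 (colon carcinoma) and Pan02 (pancreatic ductal carcinoma). Each model is 1 C57BL/6-derived cell line, of which 500000 cells were placed under the flank skin of adult female C57BL/6 mice, so all groups shared host strain, sex and site, carried no drug treatment and had no non-tumor control. CAFs covered 4 models, EO771, LL2, MC38 and Pan02, with 2 libraries each and none from B16; they were live FAP+ cells collected by flow sorting after magnetic removal of CD45+ cells. The labels do not say which animals the libraries came from, so the p-values measure only the spread between these libraries. The titles of the Pan02 tumors read Pan01, and their cell line field reads Pan02. Tumor libraries held 10035180 to 21946495 counts on genes, and CAF libraries held 9268100 to 22846200 reads, recovered from the steps of the deposited values. Summed leukocyte markers (*Ptprc*, *Cd68*, *Lyz2* and 4 others) ranged from 472 to 4846 TPM (transcripts per 1000000) in tumors and from 19.5 to 192 TPM in CAFs, and summed fibroblast markers (*Fap*, *Col1a1*, *Dcn* and 5 others) from 152 to 16623 TPM in tumors and from 2854 to 17456 TPM in CAFs. Germ cell markers (*Ddx4*, *Dazl*, *Tnp1* and 4 others) summed to 0.821 to 8.46 TPM in tumors and 0.964 to 10.3 TPM in CAFs. In bulk RNA, fewer cells of a type and less RNA per cell cannot be told apart.

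The *Rhox2* genes are recent copies of one another, and promoters are printed to show how alike they are. The 200 bases upstream of the annotated start (RefSeq, GRCm38.p6) are given 5′ to 3′ for the 3 copies that carried most reads, *Rhox2d*, *Rhox2g* and *Rhox2h*, and for *Rhox2c*, which carried almost none, with each CG dinucleotide, the methylatable unit, in capitals.
Rhox2d (chrX:37493210-37493409, plus strand): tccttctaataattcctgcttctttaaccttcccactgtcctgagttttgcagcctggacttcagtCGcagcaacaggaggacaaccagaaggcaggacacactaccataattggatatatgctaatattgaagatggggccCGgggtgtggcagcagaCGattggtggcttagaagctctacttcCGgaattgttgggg
Rhox2g (chrX:37643471-37643670, minus strand): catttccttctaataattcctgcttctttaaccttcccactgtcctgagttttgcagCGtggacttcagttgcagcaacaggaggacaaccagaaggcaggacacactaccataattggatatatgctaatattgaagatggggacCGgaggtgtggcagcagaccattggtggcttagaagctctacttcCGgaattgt
Rhox2h (chrX:37673278-37673477, minus strand): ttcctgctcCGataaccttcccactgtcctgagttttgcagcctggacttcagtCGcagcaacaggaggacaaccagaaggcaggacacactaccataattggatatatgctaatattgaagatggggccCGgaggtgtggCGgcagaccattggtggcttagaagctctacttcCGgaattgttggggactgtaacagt
Rhox2c (chrX:37453459-37453658, plus strand): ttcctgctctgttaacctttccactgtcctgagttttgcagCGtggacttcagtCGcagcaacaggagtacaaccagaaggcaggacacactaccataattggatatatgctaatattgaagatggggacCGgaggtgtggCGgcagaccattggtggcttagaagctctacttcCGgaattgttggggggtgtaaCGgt
Over 7 *Rhox2* promoter windows, every pair shared 94.7 to 100% of its aligned bases. *Rhox2d* and *Rhox2g* were 97.4% identical, and *Rhox2d* and *Rhox2c* 95.3%. The windows of *Rhox2d*, *Rhox2g*, *Rhox2h* and *Rhox2c* held 4, 3, 5 and 6 CG dinucleotides, beside a median of 5 over the promoter windows of all genes.

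The promoters of *Tex13b* and *Fmr1nb*, a pair of genes that turned out to be high in the same single model, MC38, are shown. Each holds the palindrome TCGCGA, in capitals.
Tex13b (chrX:140813434-140813633, minus strand): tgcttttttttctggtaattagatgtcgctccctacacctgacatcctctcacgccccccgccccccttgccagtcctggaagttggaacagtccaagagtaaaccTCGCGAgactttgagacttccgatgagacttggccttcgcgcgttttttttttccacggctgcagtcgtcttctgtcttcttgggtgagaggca
Fmr1nb (chrX:68761639-68761838, plus strand): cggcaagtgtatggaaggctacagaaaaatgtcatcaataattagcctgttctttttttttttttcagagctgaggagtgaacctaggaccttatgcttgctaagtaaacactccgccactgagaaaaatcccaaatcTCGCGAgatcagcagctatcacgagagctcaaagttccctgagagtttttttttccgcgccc
Searched on both strands over the 200 bases before the start, TCGCGA occurred in 587 of 32544 promoter windows (1.8%). Among the 45 members with a window, these 2 genes held it. *Rhox10*, also found in MC38 alone, did not, and *Mageb1* and *Mageb2*, likewise highest there, had no window. The pair was picked after its shared pattern was known, and a link between the palindrome and the level was not tested. The E-box CACGTG, searched the same way, occurred in 5.27% of all windows and in those of 2 members, *Rhox4e* and *Rhox4g*, both at 0 in the tumors. These matches describe letters and do not establish binding sites.

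Because near-identical copies share reads, the share of each transcript that is its own was counted in windows of 50 bases against all other annotated mouse genes. All windows of *Rhox5*, *Rhox10* and *Fmr1nb* were unique, as were 99.8% of those of *Tex13b*. Among the *Rhox2* copies the unique share was 55.3% for *Rhox2d*, 46.3% for *Rhox2h*, 45.2% for *Rhox2g* and 43.1% for *Rhox2f*, but 17.7% for *Rhox2b*, 13.3% for *Rhox2c*, 6.57% for *Rhox2a* and 0% for *Rhox2e*. Counts of the latter 4 copies are therefore uncertain. Of 31 members with at most 3 counts in every library of both tables, 21 had fewer than 50% unique windows, compared with 8 of the other 25 members. The reads of *Mageb1* and *Mageb2* cannot be separated, since the row of *Mageb2* (chrX:91331905-91332897, mm10) lies inside that of *Mageb1*.

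Most members were silent in tumors. Of the 56, 16 had 0 counts in all 15 tumors, and 32 never exceeded 3 counts, the floor used here. The share of members at 1 CPM (counts per 1000000) or more in every tumor of at least 1 model was 26.8% (15 of 56), whereas 59.2% of all symbols reached that level. The same threshold was passed by 11 members in MC38, 10 in EO771, 9 in LL2, 6 in Pan02 and 5 in B16. Of all symbols, 52.7%, 51.6%, 51.3%, 53.4% and 51% passed it in the same order of models. All 5 members in B16 were type II *Mage* genes. Of the 56, 6, or 10.7%, reached 1 CPM in every tumor of 1 model and stayed under it in all other tumors, compared with 1.89% of all symbols. Of these, 1 was found in EO771 (*Rhox2f*) and 5 in MC38 (*Tex13b*, *Fmr1nb*, *Rhox10*, *Mageb1* and *Mageb2*).

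**Figure D1:**
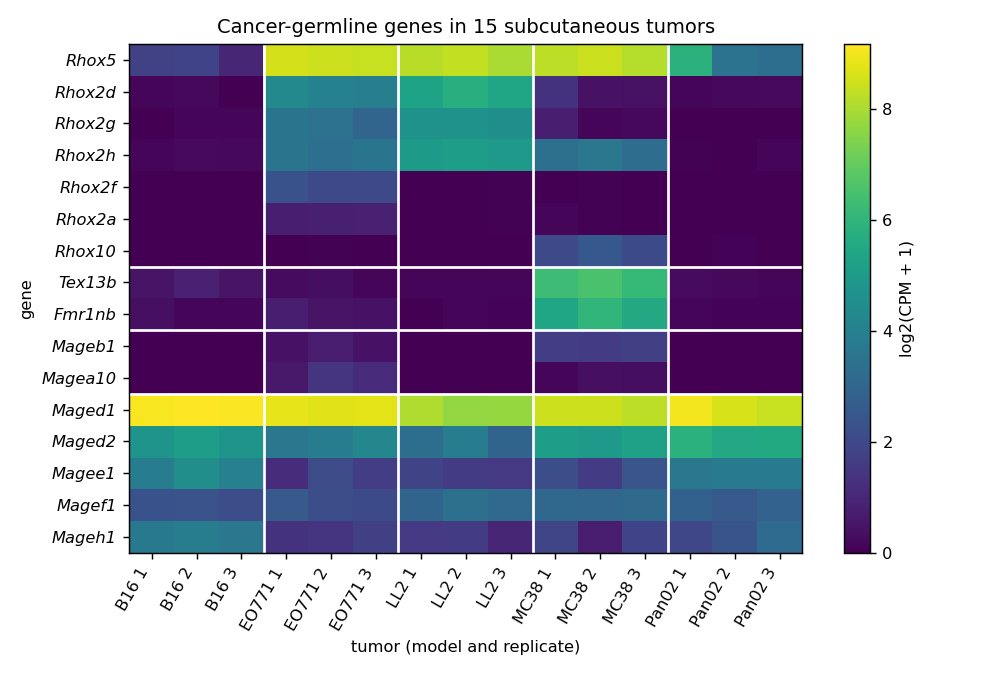
Level of each named member in each of the 15 tumors, as log2(CPM + 1) in color, from dark (0) to yellow (highest); *Mageb2* is left out beside *Mageb1*, columns are tumors by model and white lines separate families and models. *Rhox2d*, *Rhox2g* and *Rhox2h* are bright in EO771 and LL2, *Tex13b* and *Fmr1nb* in MC38, and *Maged1* in all 5 models.

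In the tumors, 16 members passed the filter on low counts and were tested, and all 16 differed among the 5 models in edgeR's quasi-likelihood F test (adjusted p under 0.05), as did 91.1% of all tested genes. Calls of higher or lower set 1 model against the average over the remaining 4 models, and needed a log2 fold change of 1 or more either way beside an adjusted p under 0.05. In B16, 2 members were called higher and 4 lower (13.1% and 19.6% of all tested genes). In EO771, 8 were higher and 3 lower (9.71% and 13.7%), and in LL2 4 were higher and 5 lower (8.51% and 8.3%). MC38 had 7 higher and none lower (11.2% and 8.23%), and Pan02 had 2 higher and 6 lower (18.8% and 7.92%). The counts of lower members leave out several with no reads in a model, where the contrast had no usable error. In B16, *Rhox2f* and *Rhox10* were at 0 in every tumor, with log2 fold changes of -3.29 (SE 4254) and -3.20 (SE 4637). *Mageb1* and *Mageb2*, at 0 in every B16, LL2 and Pan02 tumor, were likewise not called lower there. In MC38 edgeR gave 3 members below the other models at an unadjusted p under 0.05 (*Magee1*, *Mageh1* and *Rhox2d*), and DESeq2 called 1 lower. Members other than the widely expressed type II genes passed the filter through the models where they were high, so these counts describe the tested members and not the families as a whole.

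*Rhox5*, the founding member of the cluster and a homeobox gene of Sertoli cells and placenta, was the most abundant *Rhox* gene (chrX:37754608-37808878, mm10). In EO771 its level was 383, 354 and 341 CPM in the 3 tumors, in LL2 289, 322 and 255 CPM, and in MC38 309, 351 and 282 CPM. In B16 it was 2.41, 2.58 and 0.998 CPM. MC38 overlapped EO771 and LL2, EO771 lay just above LL2, and all 3 lay far above B16. In Pan02 the level was 59.0, 10.3 and 8.88 CPM, so that tumor 1 stood apart from the other 2. The mean in EO771 was 180-fold that in B16 and 13.8-fold that in Pan02. Without Pan02 tumor 1, EO771 was 37.6-fold above Pan02, and Pan02 was 4.80-fold above B16, compared with 13.1-fold with all 3 tumors. Pan02 exceeded B16 by 3.75 on the log2 scale (the contrast B16 minus Pan02 was -3.75, SE 0.65, adjusted p = 0.00022). In the fit, whose spread for this gene is shared over all models, EO771 and LL2 did not differ beyond it (log2 difference 0.32, SE 0.52, adjusted p = 0.65), nor did EO771 and MC38 (0.20, SE 0.52, adjusted p = 0.78) or LL2 and MC38 (-0.12, SE 0.52, adjusted p = 0.87). Against the other 4 models, *Rhox5* in Pan02 had a log2 fold change of -1.77 (SE 0.48, adjusted p = 0.0058), and without Pan02 tumor 1 it was -3.25 (SE 0.24, adjusted p = 2.7e-07). The other 4 beta genes did not pass the filter.

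**Figure D2:**
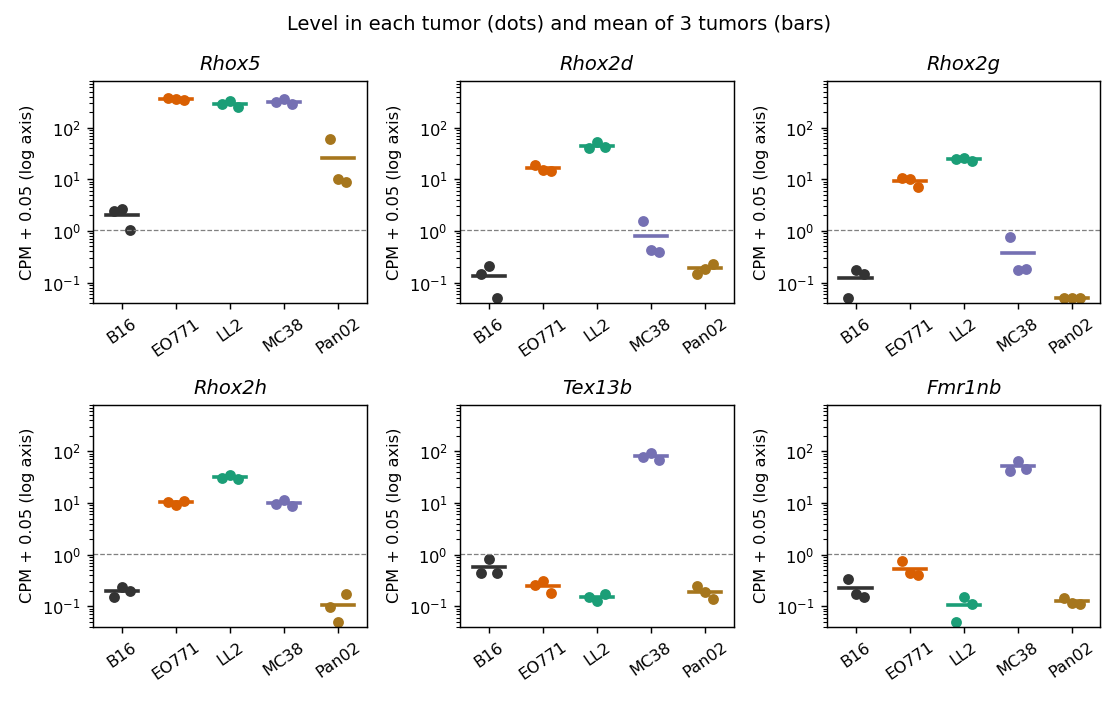
Level of 6 members in single tumors (dots) with the mean of the 3 tumors of a model (bars), as CPM + 0.05 on a log axis; the dashed line marks 1 CPM. *Rhox5* in Pan02 spans 8.88 to 59.0 CPM, while its 3 values within EO771, LL2 or MC38 lie close together.

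The *Rhox2* copies, placental and germline homeobox genes of the alpha subcluster, followed another order. *Rhox2d* stood at 39.5, 52.8 and 41.3 CPM in LL2 and at 19.09, 15.4 and 14.2 CPM in EO771. It was 1.54, 0.372 and 0.342 CPM in MC38 and at most 0.180 CPM in B16 and Pan02. LL2 and EO771 did not overlap, and the log2 difference EO771 minus LL2 was -1.45 (SE 0.38, adjusted p = 0.0073). *Rhox2g* was 24.8, 25.3 and 22.9 CPM in LL2, 10.5, 9.89 and 7.06 CPM in EO771, and 0 in all 3 Pan02 tumors. LL2 was at least 120-fold above Pan02 by the floor of 3 counts per library, and EO771 lay below LL2 (log2 difference -1.40, SE 0.39, adjusted p = 0.013).

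*Rhox2h* was the copy with most reads in MC38. Its levels were 30.8, 34.2 and 29.1 CPM in LL2, 10.5, 9.17 and 10.8 CPM in EO771 and 9.46, 11.4 and 8.76 CPM in MC38, with at most 0.187 CPM in B16 and Pan02. LL2 exceeded MC38 by 1.66 on the log2 scale (SE 0.22, adjusted p = 4.2e-05), whereas EO771 and MC38 overlapped and did not differ beyond their spread (0.04, SE 0.21, adjusted p = 0.89). *Rhox2f* was carried by EO771, at 3.97, 3.10 and 3.05 CPM, and was at most 0.0497 CPM in any other tumor. Its mean in EO771 was at least 11.5-fold that in B16 and at least 16.7-fold that in Pan02. *Rhox2a* was 0.688, 0.764 and 0.784 CPM in EO771 and at most 0.0963 CPM elsewhere, on a transcript with few unique windows.

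Expressed as shares of all *Rhox2* reads of a library, the copies were mixed differently in the 3 models. In the EO771 tumors *Rhox2d* had a mean share of 40.3%, *Rhox2h* 25.6%, *Rhox2g* 22.7% and *Rhox2f* 8.39%. In the LL2 tumors the shares were 44.2% for *Rhox2d*, 31.3% for *Rhox2h*, 24.3% for *Rhox2g* and 0.0112% for *Rhox2f*. In MC38 *Rhox2h* took 79.7 to 95.1% of the reads. The lowest of these shares was that of MC38 tumor 1, the tumor with 1.54 CPM of *Rhox2d*, in which summed epithelial markers stood at 83.8 TPM against 10.1 and 10.4 TPM in tumors 2 and 3; the part of this in the result was not tested. The 8 copies were also summed, and division of reads among the copies cannot alter the sum, though *Rhox2c* shares 152 exon bases with *Rhox3c*. Any reads left uncounted because they match several copies would lower the sum and could shift the shares, and their number is not known. The sum reached 93.3 to 113 CPM in LL2, 36.2 to 45.5 CPM in EO771, 9.24 to 12.0 CPM in MC38, 0.196 to 0.466 CPM in B16 and 0.135 to 0.390 CPM in Pan02. The 3 higher models did not overlap in this sum, and B16 overlapped Pan02.

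**Figure D3:**
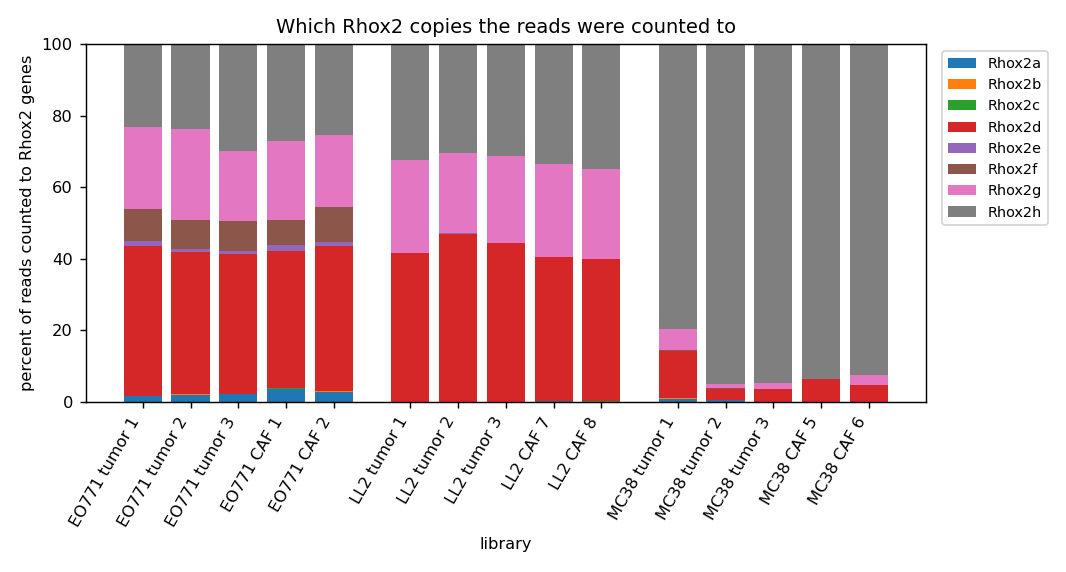
Share of each *Rhox2* copy in all *Rhox2* reads of a library, in percent, for the tumor and CAF libraries of EO771, LL2 and MC38; each stacked bar is 1 library. *Rhox2h* takes 79.7 to 95.1% in MC38 tumors and 92.4 to 93.6% in MC38 CAFs, whereas EO771 and LL2 hold 3 or more copies.

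The *Rhox3* and *Rhox4* genes, the other copies of the alpha subcluster, stayed at or below 3 counts in every tumor. Of the gamma genes, 1 was detected. *Rhox10*, a homeobox gene of germ cells, measured 3.03, 4.82 and 3.18 CPM in MC38 and at most 0.0675 CPM in any other tumor, and the MC38 mean was at least 12.5-fold that in B16 and at least 18.0-fold that in LL2. *Rhox11* was at 0 in all tumors, and *Rhox12* and *Rhox13* did not exceed the floor.

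*Tex13b* (chrX:140808307-140813433, mm10) and *Fmr1nb* (chrX:68761839-68804560, mm10), which lie far apart on the X chromosome, were both high in MC38. *Tex13b* measured 78.1, 91.7 and 69.3 CPM in the MC38 tumors, and the highest value in any other tumor was 0.777 CPM, in B16. Its mean in MC38 was 152-fold that in B16. *Fmr1nb* measured 41.8, 65.6 and 45.6 CPM in MC38 and 0.715, 0.382 and 0.349 CPM in EO771, a difference of 106-fold between the means. In B16, LL2 and Pan02 it did not exceed 0.295 CPM. MC38 did not overlap any other model for either gene, and both were called higher there (adjusted p = 3.2e-13 for *Tex13b* and 5.8e-11 for *Fmr1nb*). Outside MC38, *Tex13b* lay at 0.128 to 0.656% of its MC38 mean and *Fmr1nb* at 0.109 to 0.945%. Melanocyte genes such as *Pmel* and *Tyr*, a reference for low-level reads, lay at 0.0357 to 0.0943% of their B16 mean in the tumors of other models.

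Among the 16 type I *Mage* genes, 3 reached a mean of 1 CPM in a model, and 2 of them are the inseparable *Mageb1* and *Mageb2*. *Mageb1* measured 2.17, 1.99 and 2.36 CPM in MC38, 0.371, 0.637 and 0.349 CPM in EO771, and 0 in every B16, LL2 and Pan02 tumor. MC38 exceeded EO771 4.80-fold (log2 difference EO771 minus MC38 -2.23, SE 0.40, adjusted p = 0.0028), and exceeded B16, LL2 and Pan02 at least 7.37-fold, 10.7-fold and 10.7-fold. *Magea10* measured 0.530, 1.61 and 1.13 CPM in EO771, at most 0.298 CPM in MC38 and 0 in all B16, LL2 and Pan02 tumors. It did not pass the filter on low counts and was not tested. The EO771 mean was at least 3.71-fold that in B16. The type I family as a whole, counted without *Mageb2*, summed to 1.40 to 2.72 CPM in EO771, 2.46 to 2.98 CPM in MC38 and at most 0.240 CPM in B16, LL2 and Pan02.

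Of the 7 type II *Mage* genes, 5 were tested in tumors. *Maged1*, which encodes an adaptor of neurotrophin receptor signaling, was the most abundant, at a mean of 558 ± 17.9 CPM in B16, 442 ± 8.79 CPM in EO771, 414 ± 90.3 CPM in Pan02, 338 ± 28.0 CPM in MC38 and 230 ± 34.4 CPM in LL2 (SD, n = 3 each). B16 lay above LL2 by 1.28 on the log2 scale (SE 0.15, adjusted p = 6.4e-06). B16, at 544 to 578 CPM, lay above EO771, at 434 to 451 CPM, without overlap. The difference did not pass the test, whose spread is shared over all models (0.34, SE 0.14, adjusted p = 0.059). EO771 and Pan02 (0.09, SE 0.14, adjusted p = 0.59) and MC38 and Pan02 (-0.29, SE 0.14, adjusted p = 0.095) overlapped and did not differ beyond their spread. *Maged2* was 49.8 ± 6.96 CPM in Pan02, 33.4 ± 3.36 CPM in MC38, 28.5 ± 4.34 CPM in B16, 14.5 ± 3.21 CPM in EO771 and 9.68 ± 3.33 CPM in LL2 (SD, n = 3 each), and was called higher in Pan02 and lower in LL2 (log2 fold changes 1.38, SE 0.16, and -1.56, SE 0.20, adjusted p = 7.4e-06 and 3.3e-05). Pan02 and MC38 differed (MC38 minus Pan02 -0.58, SE 0.22, adjusted p = 0.037), MC38 and B16 did not beyond their spread.

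*Magee1*, of the dystrophin-associated MAGE proteins, split the models into high and low. It was 13.8, 22.0 and 14.9 CPM in B16 and 11.8, 12.9 and 12.5 CPM in Pan02, and between 1.24 and 4.42 CPM in the EO771, LL2 and MC38 tumors. Every B16 tumor lay above every Pan02 tumor, but the difference did not pass the test (0.45 on the log2 scale, SE 0.32, adjusted p = 0.23), and neither model overlapped the 3 lower ones. *Mageh1* was 12.1, 13.6 and 11.4 CPM in B16, 2.91, 4.28 and 8.31 CPM in Pan02 and between 0.646 and 2.82 CPM in the other 3 models. B16 exceeded Pan02 by 1.26 on the log2 scale (SE 0.47, adjusted p = 0.03). *Magef1*, which acts in a pathway of iron-sulfur protein turnover and is listed as a pseudogene in the deposited annotation, had a narrow range, from 3.84 ± 0.342 CPM in B16 to 8.04 ± 1.43 CPM in LL2 (SD, n = 3 each). It was called in no model, with log2 fold changes between -0.67 and 0.67. *Magel2* and *Magee2* did not pass the filter.

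Compared pair by pair, B16 and Pan02 were the models with the fewest differing members, 6 of 16, although 64.3% of all tested genes differed between them. Of the 16, *Mageb1*, *Mageb2*, *Rhox2a* and *Rhox2f* were at 0 in every tumor of both models and could not differ. *Mageb1* and *Mageb2* were at 0 in LL2 as well. The counts by pair thus depend on which members passed the filter through other models. EO771 differed from B16 in 13 members, from Pan02 in 13, from MC38 in 12 and from LL2 in 10 (58.6%, 61.2%, 49.3% and 44.4% of all tested genes). MC38 differed from B16 in 13, from Pan02 in 12 and from LL2 in 10 (60%, 58.9% and 43.8%). LL2 differed from B16 in 10 and from Pan02 in 8 (56.6% and 48.6%). The pairs share libraries and are not independent of one another.

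CAFs carried members of the same families. At 1 RPKM or more in every library of at least 1 model stood 14 of the 56 members, or 25%, compared with 53.8% of all symbols. The number per model was 11 in EO771, 10 in MC38, 9 in LL2 and 5 in Pan02 (47.1%, 47.3%, 47.1% and 46.3% of all symbols). In 1 model alone stood 5 members, or 8.93%, compared with 3.4% of all symbols. These were *Rhox2a* and *Rhox2f* in EO771 and *Tex13b*, *Fmr1nb* and *Rhox10* in MC38. On the log2(RPKM + 1) scale, 14 members were tested with limma and 12 differed among the 4 models, as did 80.4% of all tested genes. Against the mean of the other 3 models, with the same thresholds, EO771 had 5 members higher and 3 lower (8.05% and 7.06% of all tested genes), LL2 4 higher and 2 lower (3.89% and 5.13%), MC38 5 higher and 2 lower (10.9% and 9.87%), and Pan02 none higher and 7 lower (9.73% and 8.41%). In Pan02 limma placed 1 member, *Magee1*, higher at an unadjusted p under 0.05 (0.35, SE 0.12), and edgeR on recovered reads called 0. With either MC38 library left out, 1 or 2 members remained above the thresholds in MC38.

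*Rhox5* measured 314 and 373 RPKM in the 2 EO771 CAF libraries, 235 and 290 RPKM in LL2, 267 and 266 RPKM in MC38, and 12.4 and 8.39 RPKM in Pan02. The first 3 models stood far above Pan02, where the difference from the other 3 was -4.69 (SE 0.17, adjusted p = 2.5e-06). *Rhox2d* measured 31.9 and 37.8 RPKM in LL2, 13.1 and 17.0 RPKM in EO771, and at most 0.528 RPKM in MC38 and Pan02. *Rhox2g* measured 20.4 and 24.0 RPKM in LL2 and 7.42 and 8.39 RPKM in EO771. *Rhox2h* measured 27.1 and 33.8 RPKM in LL2, 9.40 and 10.9 RPKM in EO771, 7.88 and 6.77 RPKM in MC38 and at most 0.036 RPKM in Pan02. For all 3 copies LL2 lay above EO771 without overlap, and of the 3, *Rhox2h* was the copy with most reads in MC38. In shares of *Rhox2* reads, *Rhox2h* took 92.4 and 93.6% in MC38 CAFs, and *Rhox2f* took 7.12 and 9.71% in EO771 CAFs and none in LL2 CAFs.

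*Tex13b* measured 34.6 and 54.7 RPKM in MC38 CAFs and at most 0.079 RPKM in any other CAF library. Its difference from the other 3 models was 5.42 (SE 0.17, adjusted p = 3.7e-06). *Fmr1nb* measured 45.3 and 38.4 RPKM in MC38, 0.369 and 0.509 RPKM in EO771 and at most 0.036 RPKM in LL2 and Pan02, with a difference of 5.23 in MC38 (SE 0.12, adjusted p = 8.9e-07). *Rhox10* measured 1.25 and 2.64 RPKM in MC38 and at most 0.082 RPKM elsewhere. *Rhox2f* measured 2.47 and 4.17 RPKM in EO771 and 0 in all LL2, MC38 and Pan02 libraries, and *Rhox2a* 1.24 and 1.19 RPKM in EO771. The type I genes did not pass the filter in CAFs, and *Mageb1* was highest in MC38, at 0.531 and 0.662 RPKM.

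Among the type II genes of CAFs, *Maged1* lay between 125 and 193 RPKM in all 8 libraries and did not pass the F test (adjusted p = 0.051), and *Magee1* did not either (adjusted p = 0.089). *Maged2* measured 56.1 and 34.6 RPKM in MC38 and was called higher there (1.15, SE 0.19, adjusted p = 0.0014). *Magef1* measured 2.12 and 1.70 RPKM in EO771, below every other library, and was called lower there (-1.19, SE 0.13, adjusted p = 0.00044). *Mageh1* measured 1.60 and 0.521 RPKM in Pan02 and 4.16 to 5.52 RPKM in LL2 and EO771, and MC38 was uneven, at 5.10 and 1.62 RPKM. It was called lower in Pan02 (-1.36, SE 0.32, adjusted p = 0.0097).

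**Figure D4:**
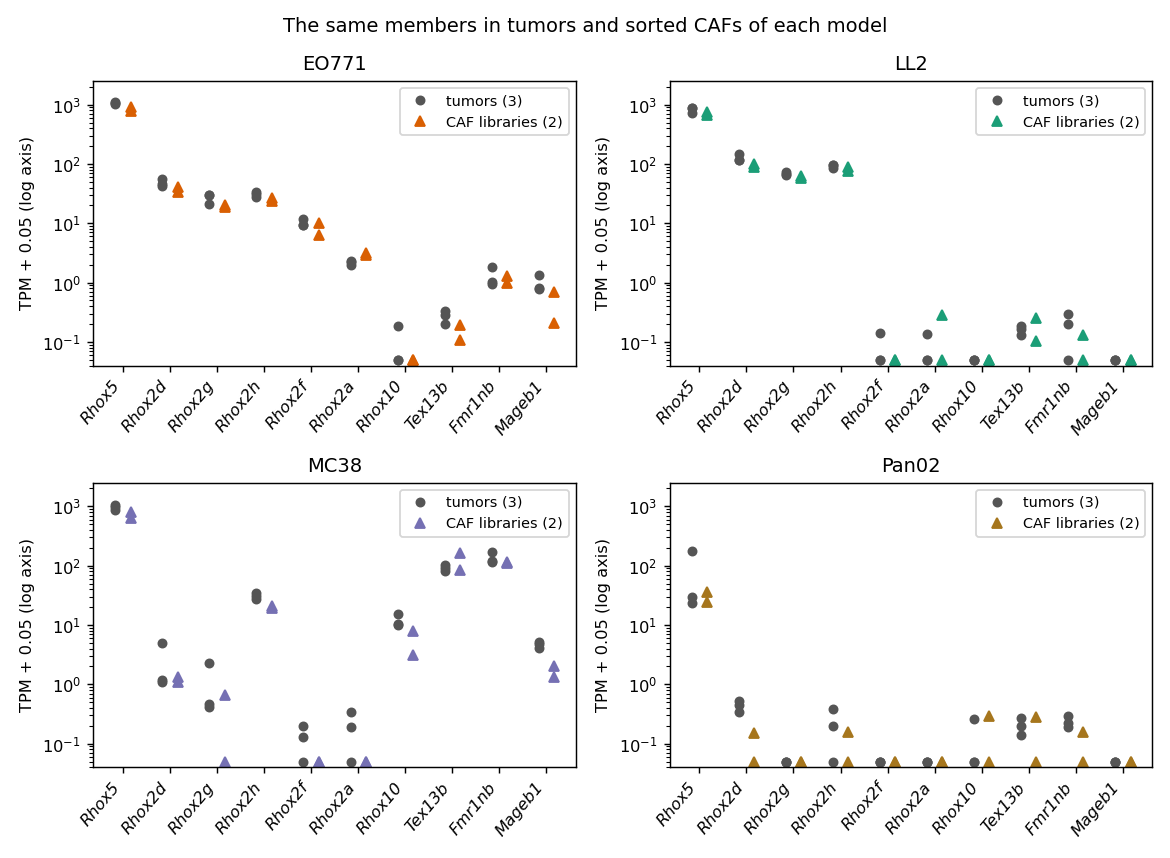
Levels of 10 members in the 4 models with both tables, 1 panel per model, as TPM + 0.05 on a log axis; circles are the 3 tumors and triangles the 2 CAF libraries. *Rhox5* is the highest in EO771, with means of 1063 TPM in tumors and 849 TPM in CAFs, and *Tex13b* and *Fmr1nb* are high in both tables of MC38.

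Tumors and CAFs were processed into separate tables, so their levels were set side by side per length, in TPM, without a test. For *Fmr1nb*, *Maged2* and *Rhox2a* the kept transcript differed between tumors and CAFs, so their levels come from different transcripts. Of 14 members tested in both tables, 10 had their highest mean in the same model, among the 4 models with both tables. No share over all tested genes was computed beside this count. Members other than type II genes passed the filters through the models where they were high, so the count does not set the members apart from other genes. The 4 members with different highest models were type II genes, *Maged1*, *Maged2*, *Magef1* and *Mageh1*. *Rhox5* in CAFs was 0.80 times its tumor mean in EO771, 0.86 times in LL2, 0.75 times in MC38 and 0.40 times in Pan02. Without Pan02 tumor 1 the ratio in Pan02 was 1.13. *Rhox2d*, *Rhox2g* and *Rhox2h* in CAFs were 0.72 to 0.81 times their tumor means in EO771 and 0.74 to 0.89 times in LL2. In MC38, *Tex13b* was 1.36 times its tumor mean, *Fmr1nb* 0.84 times, *Rhox10* 0.47 times and *Mageb1* 0.35 times.

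Cell type markers moved between the tables as follows. Summed leukocyte markers in CAFs were 0.13 times those of tumors in EO771 and 0.0081 to 0.026 times in the other 3 models. Summed fibroblast markers were 8.24 times higher in EO771 CAFs, 5.79 times in LL2 and 2.14 times in MC38, and in Pan02 they were 0.46 times the tumor value. Summed epithelial markers (*Epcam*, *Cdh1*, *Krt8*, *Krt18* and *Krt19*) were not depleted to the same degree, at 0.76 times the tumor sum in EO771, 0.63 times in LL2 and 0.77 times in Pan02. In these CAFs the epithelial sum stood at 543 to 3266 TPM, whereas in MC38 CAFs it was 5.23 and 8.99 TPM. The MC38 tumors were themselves low, at 10.1 to 83.8 TPM, and the ratio of CAFs to tumors was 0.20. These markers therefore say little about cancer cells in MC38 CAFs. Endothelial markers were at 0.16 to 0.98 times and pericyte markers at 0.19 to 2.05 times the tumor sum. Melanocyte markers were at 0.882 to 5.23 TPM in CAFs. Summed germ cell markers were at 0.87 times the tumor sum in EO771, 1.37 times in LL2, 1.24 times in MC38 and 1.16 times in Pan02. Of these, *Tnp1* was at 0 in every CAF library and in every tumor outside Pan02. In LL2 CAFs every other germ cell marker was above 0 in a library. In MC38, CAF library 6 had a fibroblast sum of 2854 TPM against 11326 TPM in library 5, and *Tex13b* was 166 TPM against 83.5 TPM, *Rhox10* 8.02 TPM against 3.02 TPM and *Rhox5* 808 TPM against 643 TPM. The part of these cell types in the levels of *Rhox*, *Tex13b* and *Fmr1nb* in CAFs was not tested.

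Among the 5 tested type II genes, the ratio of CAF to tumor level ran from 0.38 to 4.34. *Maged2* in CAFs was 4.24 times its tumor mean in EO771, 4.002 times in LL2, 3.30 times in MC38 and 1.12 times in Pan02. The kept transcript of *Maged2* differed between tumors and CAFs. *Magee1* was 3.18, 3.20, 1.73 and 0.91 times its tumor mean in the same order of models. *Mageh1* was 4.26, 4.34, 2.41 and 0.38 times its tumor mean. For these 3 genes the ratio was lowest in Pan02. The same held for the fibroblast (0.46), endothelial (0.16) and pericyte (0.19) sums, but not for the leukocyte or epithelial sum. The part of these cell types in the ratios was not tested. *Maged1* was 1.06, 1.80, 1.58 and 1.53 times and *Magef1* 0.76, 1.35, 1.59 and 1.21 times its tumor mean, with the lowest ratio in EO771.

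**Figure D5:**
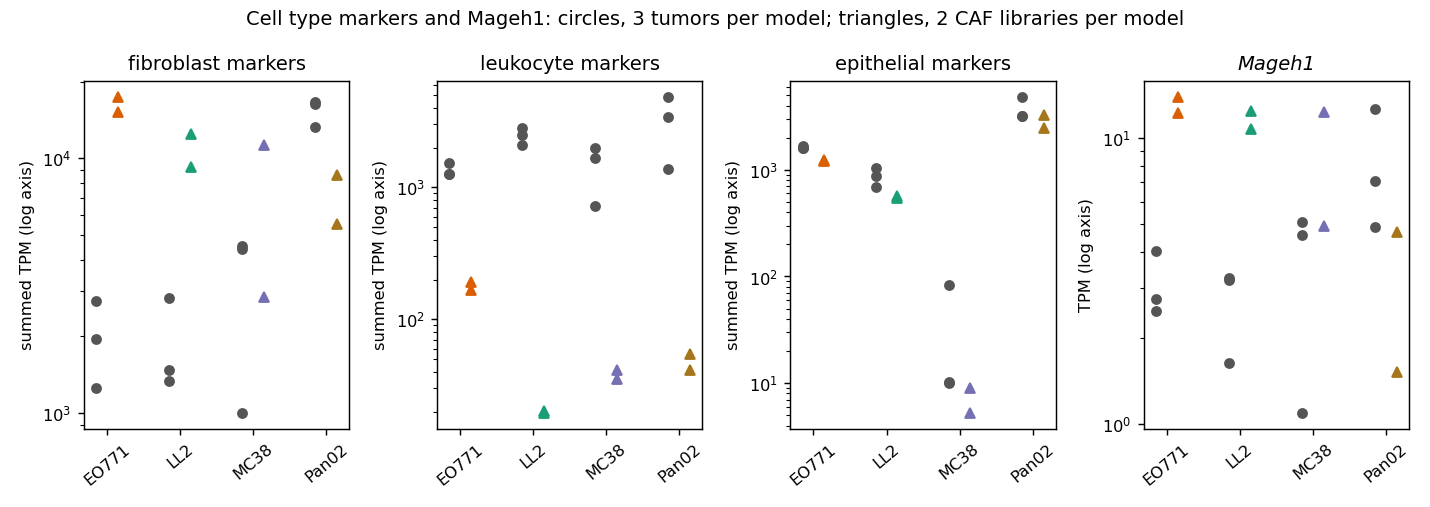
Summed fibroblast, leukocyte and epithelial markers and *Mageh1*, in TPM on log axes that do not start at 0, by model; circles are the 3 tumors and triangles the 2 CAF libraries of a model. In Pan02, *Mageh1* lies at 4.88 to 12.6 TPM in tumors and at 1.52 and 4.68 TPM in CAFs, and the fibroblast sum is lower in CAFs than in tumors.

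Genes beside the members on the chromosome were read for comparison: the 2 nearest named coding genes on either side of each run of members holding a tested one, 38 in all, of which 23 were tested. All are listed as protein-coding in the deposited annotation, although 3 carry the names of pseudogenes. Called higher and lower were 9 and 4 of the 23 in B16, 3 and 3 in EO771, 1 and 4 in LL2, 2 and 3 in MC38, and 4 and 5 in Pan02, against the shares of all tested genes given above for the members. Beside the *Rhox* cluster, *Rnf113a1* had log2 fold changes from -0.71 to 0.45 across the models. On the other side *Zbtb33*, which encodes a methyl-CpG-binding repressor, was called higher in B16 (1.05, adjusted p = 8.6e-06). *Fmr1*, next to *Fmr1nb*, was 95.1 ± 9.68 CPM in MC38 and 101 ± 16.4 CPM in B16 (SD, n = 3 each). Next to *Tex13b*, the untested *Vsig1* was at 0.205 to 0.530 CPM in MC38 and 0.150 to 0.497 CPM in B16. It was at 0 in every EO771, LL2 and Pan02 tumor. Beyond *Vsig1*, *Psmd10*, a proteasome assembly factor, was 54.0 ± 6.33 CPM in MC38 and 49.6 ± 1.49 CPM in EO771 (SD, n = 3 each). Beside *Mageb1* and *Mageb2*, the untested *Gm44* was at 0.342 to 1.32 CPM in MC38 and at most 0.0871 CPM in any other tumor. Next to *Mageh1*, which was highest in B16 and next in Pan02, the untested *Usp51* was at 0.249 to 0.884 CPM in B16. *Usp51* was at most 0.0600 CPM in Pan02 and 0 in every EO771, LL2 and MC38 tumor. Beyond *Usp51*, *Gpr143*, a melanosome receptor, stood at 61.5 ± 4.20 CPM in B16. *Foxr2*, a forkhead factor, stood at 78.1 ± 12.0 CPM there (SD, n = 3 each). Neither *Gpr143* nor *Foxr2* exceeded 0.204 CPM in any other tumor, those of Pan02 included. *Rragb*, of the Rag GTPases, was 2.43 ± 0.373 CPM in B16, 1.70 ± 0.350 CPM in Pan02 and did not exceed 0.377 CPM elsewhere.

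Other germline genes, a list of 37, were mostly undetected as well, and 10 passed the filter in tumors. Of the 10, 5 were called higher and 2 lower in EO771 (9.71% and 13.7% of all tested genes), 5 and none in MC38 (11.2% and 8.23%), 1 and 4 in LL2 (8.51% and 8.3%), 2 and 3 in Pan02 (18.8% and 7.92%), and 3 and 2 in B16 (13.1% and 19.6%). Genes of such a list pass the filter through the models where they are high. *Tex19.1*, a regulator of retrotransposons in germ cells and placenta, was 90.1 ± 8.27 CPM in EO771, 9.14 ± 1.29 CPM in MC38 and at most 0.337 CPM in any other tumor. *Sohlh2*, a germ cell transcription factor, was 30.3 ± 1.68 CPM in EO771 and at most 1.23 CPM elsewhere. *Tex101*, a germ cell surface protein, was 3.74 ± 0.890 CPM in MC38. *Xlr3a*, an X-linked lymphocyte-regulated gene, was 6.37 ± 0.595 CPM in B16, 5.93 ± 1.12 CPM in MC38 and 3.18 ± 0.262 CPM in EO771 (SD, n = 3 each throughout). B16, in which *Rhox* and type I genes were low, carried *Xlr3a* at a level overlapping MC38. The median log2 fold change over the 10 tested genes was 0.89 in EO771 and 1.05 in MC38, beside -0.04 and -0.00066 over all tested genes. It was -0.24 in B16, -1.47 in LL2 and -0.91 in Pan02, beside -0.03, 0.0074 and 0.05. In CAFs *Sohlh2* (9.22 and 9.62 RPKM) and *Tex19.1* (23.5 and 27.0 RPKM) were again highest in EO771.

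Genes of DNA methylation and of germline gene repression, a list of 19 that were all tested in tumors, held 18 that passed the F test, beside 91.1% of all tested genes. Of the 19, 4 were called higher and 1 lower in B16 (13.1% and 19.6% of all tested genes), none higher and 5 lower in Pan02 (18.8% and 7.92%), 3 and 3 in MC38 (11.2% and 8.23%), 1 and 2 in EO771 (9.71% and 13.7%) and 1 and 1 in LL2 (8.51% and 8.3%). Their median log2 fold change was 0.30 in B16 and -0.52 in Pan02, beside -0.03 and 0.05 over all tested genes, and -0.12 to 0.14 in the other models. *Dnmt1*, the maintenance methyltransferase, was 401 ± 52.8 CPM in B16 and 129 ± 25.1 CPM in Pan02, and its partner *Uhrf1* was 285 ± 64.4 and 79.8 ± 30.5 CPM. *Dnmt3a*, a de novo methyltransferase, was 195 ± 11.4 CPM in B16 and 43.7 ± 2.76 CPM in MC38, whereas *Dnmt3b* was 22.4 ± 1.78 CPM in MC38 and 3.33 ± 0.537 CPM in Pan02. *Dnmt3l*, their germ cell cofactor, was 7.59 ± 1.86 CPM in MC38, 5.29 ± 2.18 CPM in LL2 and 0.328 ± 0.0727 CPM in B16. *Tet1*, which oxidizes methylated cytosine, was 14.3 ± 2.03 CPM in B16 and 0.246 ± 0.0294 CPM in EO771. *L3mbtl2*, of a Polycomb complex, was 289 ± 35.3 CPM in B16 and 38.7 ± 1.91 CPM in Pan02 (SD, n = 3 each throughout). In CAFs, with 18 of the 19 tested, 2 were called higher and 1 lower in MC38 (10.9% and 9.87% of all tested genes), 1 lower in Pan02 (8.41%), and none in EO771 or LL2.

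Known binding partners of MAGE proteins, a list of 14 with 12 tested, were read in every model. In tumors, 2 were called higher in EO771, 2 higher in Pan02 and 2 lower in B16 (9.71%, 18.8% and 19.6% of all tested genes) and none in LL2 or MC38, with medians of the log2 fold change from -0.23 (B16) to 0.21 (LL2). *Pja1*, the ubiquitin ligase that binds the *Maged1* product, was 266 ± 17.2 CPM in EO771 and between 54.6 ± 5.16 CPM (Pan02) and 75.1 ± 8.44 CPM (B16) in the other models. *Ndn*, necdin of the same protein family, was 16.9 ± 4.24 CPM in Pan02 and 1.11 ± 0.759 CPM in B16. *Ngfr*, the neurotrophin receptor, was 11.8 ± 2.90 CPM in EO771 and 14.7 ± 16.3 CPM in Pan02, where its spread exceeded its mean (SD, n = 3 each throughout). In CAFs, *Pja1* and *Ngfr* were called higher in EO771, *Ngfr* lower in MC38 and *Ndn* lower in Pan02.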

How the data were processed

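RNA-seq libraries were made from poly(A)-selected RNA without strand information. For tumors, per the file headers and the labels, the authors aligned reads with STAR 2.5.0c to mm10 and used HOMER for counting (exons of RefSeq transcripts, both strands); the deposited values are expected counts in steps of 0.5. For CAFs, the authors deposited RPKM values to 3 decimals, reads per kilobase and per 1000000 reads. Of the deposited columns, 5 that match no sample were not used. Rows naming no gene numbered 2 (2.08e-05% of tumor counts). Each symbol was kept as its row of largest mean, chosen separately in tumors and CAFs.

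Tumor counts were rounded up and tested in edgeR 4.0.16 (filterByExpr, TMM, quasi-likelihood F tests, 15732 genes, 1 spread over all models), and CPM are TMM-scaled. CAFs were tested in limma 3.58.1 on log2(RPKM + 1) with a variance trend (13598 genes at 1 RPKM or more in 2 libraries), a scale that understates differences of low genes. P-values were adjusted by Benjamini-Hochberg over all tested genes. TPM are length-adjusted values rescaled to a total of 1000000. The scripts were tested on simulated data in R 4.3.3. "At least" folds set a mean against 3 counts in the shallowest library of a group at 0, and cover counting error only. Alternatives were DESeq2 1.42.0, other scalings, filters, pseudocounts and thresholds, a replicate block and each library left out.

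Members and gene lists were chosen with earlier results of these data known. Members averaging 1 CPM or 1 RPKM or more in a model were named, 17 in all, and from each other list the 4 called genes with the largest change, with *Dnmt1*, *Uhrf1*, *Dnmt3a* and *Dnmt3b*.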

Additional observations from a re-analysis of the deposited data

Results flagged for a closer look

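*Mageh1* in Pan02 lay on opposite sides of the other models in tumors and in CAFs. In the tumors its mean was 5.17 CPM, and each of the 3 Pan02 tumors (2.91, 4.28 and 8.31 CPM) lay above every EO771, LL2 and MC38 tumor, of which the highest was 2.82 CPM. In the CAFs both Pan02 libraries (1.60 and 0.521 RPKM) lay below every EO771, LL2 and MC38 library, of which the lowest was 1.62 RPKM. The difference between the tables was not tested, because they were normalized separately. In Pan02 the summed fibroblast markers were 0.46 times as high in CAFs as in tumors, and their part in this result was not tested. The margins were small, and in TPM the order no longer held: the lowest Pan02 tumor (4.88 TPM) lay below the highest MC38 tumor (5.08 TPM).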

How the results depend on the processing

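The count of members that differed among models was 15 to 21 in tumors (16 as reported) and 9 to 17 in CAFs (12 as reported) over the alternatives. Of the log2 changes of tested members that were called or named, 50 values in tumors gave 1074 repeats with the same direction and call and 25 that lost the call, and 41 values in CAFs gave 489, with 47 that lost the call and 2 that changed sign. Both changes of sign came from edgeR on reads recovered from RPKM, an alternative chosen after seeing the data: *Fmr1nb* in EO771 CAFs became 0.11 (adjusted p = 0.74) and *Rhox2a* in LL2 CAFs 0.52 (adjusted p = 0.56). Total-count scaling moved the median of all genes by 0.143 in MC38 and -0.114 in Pan02 (log2).

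Counts of called members moved under other tools and thresholds. DESeq2 called 7 lower in B16 and 1 lower in MC38. With no filter, 15 were higher in EO771. With no fold threshold, 5 were lower in EO771 and 1 in MC38, and in CAFs 6 were lower in LL2, 4 lower in MC38 and 1 higher in Pan02. With a pseudocount of 0.1, 4 were lower in LL2 CAFs and 4 in MC38 CAFs. EdgeR on recovered reads called 9 higher and 1 lower in MC38 CAFs. With single libraries left out, the range was 0 to 1 lower in MC38 tumors (1 without B16 tumor 3, MC38 tumor 1 or MC38 tumor 3). In CAFs it was 3 to 6 higher and 1 to 3 lower in EO771, 0 to 2 lower in LL2 and 1 to 5 higher in MC38; the lowest values came without either EO771 library for higher in EO771 and without either MC38 library for the others, and the lone library left was assumed to vary like the other groups. Except where shown, the cause was not tested.

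Detection depended on the level asked. In tumors at 10 CPM, 5 members were on in MC38, 5 in LL2, 4 in EO771 and 3 in Pan02 (38.8%, 37.7%, 38% and 38.5% of all symbols). In 1 model alone were 3 (1 in B16, 0 in EO771, 2 in MC38), beside 2.33% of all symbols (0.826%, 0.305% and 0.349%). At 0.1 CPM, 18 were on in EO771, 3 in EO771 alone and 1 in MC38 alone (61.3%, 0.152% and 0.136% of all symbols). Without EO771 tumor 1, 2 were in EO771 alone, and without any other single tumor 1. In CAFs at 10 RPKM, 4 were on in EO771, 5 in MC38, 2 in Pan02 and 8 in any model (23.6%, 22%, 24.3% and 30.7% of all symbols). In 1 model alone were 3 (0 in EO771, 1 in LL2), beside 3.87% of all symbols (0.766% and 0.393%). At 0.1 RPKM, 23 were on in any model and 5 in EO771 alone (67.3% and 0.573% of all symbols).

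Same-numbered tumors correlated from -0.165 to 0.263 over 30 pairs, and 5 of 15 correlated best with their own number. No clear pairing by replicate number was seen. With 3 tumors a model, this check cannot settle whether same-numbered tumors were handled together. With the replicate number as a block, 47 of 50 values kept their call and 3 lost it, *Magee1* in MC38 (adjusted p = 0.06), *Mageh1* in EO771 (0.056) and *Mageh1* in LL2 (0.051). No paired analysis was possible for CAFs because the columns carry numbers that no label gives. With 2 or 3 libraries a model, single-library outliers could not be tested.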
